A study of Mus musculus with 10 samples.

Results

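The potassium channel genes described here were the 94 protein-coding genes whose symbol begins with Kcn, out of 56748 genes (21970 of them protein-coding) counted by RNA-seq in sorted mouse microglia and in bulk mouse brain. Membership followed from the symbol alone and used no measured value. By the role that their subfamily letters denote, 30 encode voltage-gated pore subunits, 10 electrically silent modifier subunits, 15 inward rectifiers and 14 tandem-pore-domain (K2P) leak channels. Another 8 encode pore subunits of the calcium- and sodium-activated family, and 17 encode accessory or regulatory proteins. The microglia group held 5 libraries, each labelled as 400000 sorted CD11b+ cells, and the bulk brain group held 5 libraries from hemi brains with all their cell types, microglia included. All samples came from young male C57BL/6 mice, with no treatment and no engineered allele named. Whether the replicates are separate animals is not stated in the labels, and the spread behind each p-value is that between samples, possibly technical.

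A potassium channel opens a selective path for potassium ions down their gradient, which sets the resting potential of most cells and ends the action potential of neurons. The subfamilies divide this work: voltage-gated channels repolarize, inward rectifiers and K2P channels hold the resting potential, and accessory subunits alter where and how the pores work. Microglia, the resident macrophages of the brain, lack action potentials, and K2P and inward-rectifier currents are known to set their resting potential, their surveillance of the tissue and the potassium efflux that precedes inflammasome activation.

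Total counts ran from 25087489 to 28514509 in the microglia libraries and from 25845049 to 34709215 in the bulk brain libraries, and levels are given as CPM, counts scaled by library totals after TMM adjustment; a count of 0 allows up to 3 counts, or 0.0821 to 0.125 CPM. The labelled identity held: all 9 microglia markers were higher in microglia (summed 32753 to 34001 CPM, against 236 to 267 CPM in bulk brain), and all 10 neuron markers were lower (5.20 to 9.62 CPM, against 6342 to 6854 CPM). All 6 markers of border-associated macrophages, which CD11b also marks, were higher in microglia too, at a summed 466 to 601 CPM against 8.75 to 11.2 CPM in bulk brain. So were all 10 genes of the dissociation response, at 17972 to 21970 CPM against 275 to 418 CPM, and all 3 tested neutrophil and monocyte markers, at 31.7 to 41.4 CPM against 0.468 to 0.983 CPM for the 6 listed. Every gene of these lists had counts in microglia, and the part of these cells or of the dissociation in the results below was not tested. Within bulk brain, replicates 1 and 2 stood apart from replicates 3 to 5: the chi-square per degree of freedom between libraries was 5.17 to 7.21 among replicates 3 to 5, 93.9 to 246 between them and the other pair, and 41.9 between replicates 1 and 2.

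Most potassium channel genes were lower in sorted microglia, and a small set, led by the K2P gene Kcnk6, was higher. Of 82 members with enough counts to test, 74 (90.2%) passed an adjusted p of 0.05 as lower in microglia, where 43.9% of all 18969 genes tested were lower. Another 7, or 8.54%, were higher, where 37.2% of all genes were higher. Either direction took in 98.8% of the members tested and 81% of all genes tested. Past a fold of 2 as well, 6 members were higher and 74 lower, against 27.8% and 36.8% of all genes. The 5 microglia and 5 bulk brain libraries did not overlap for 81 of the 82, as for 74.7% of all genes. The median difference of the members tested was −7.43 on the log2 scale, microglia minus bulk brain, or −6.84 with the 8 members without a single microglia count set at their bound, and that of all genes tested was −0.14. Of the 82, 58 reached the count filter in every library of bulk brain but not of microglia, and so had to be high there. All 58 were lower, as were 95.6% of the 4355 such genes. Kcna3 and Kcnn4 reached it in microglia only, where 88.8% of the 1968 such genes were higher. The filter was reached in both groups by 22, of which 6 were higher and 16 lower in microglia, where 43.3% and 34% of the 12084 such genes were higher and lower. With bulk brain replicates 3 to 5 alone, 6 were higher and 76 lower, where 37.9% and 47.4% of 20098 genes were. In whole tissue, fewer cells of a type and less RNA per cell cannot be told apart, and CPM values are shares of each library and not amounts per cell.

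**Figure D1:**
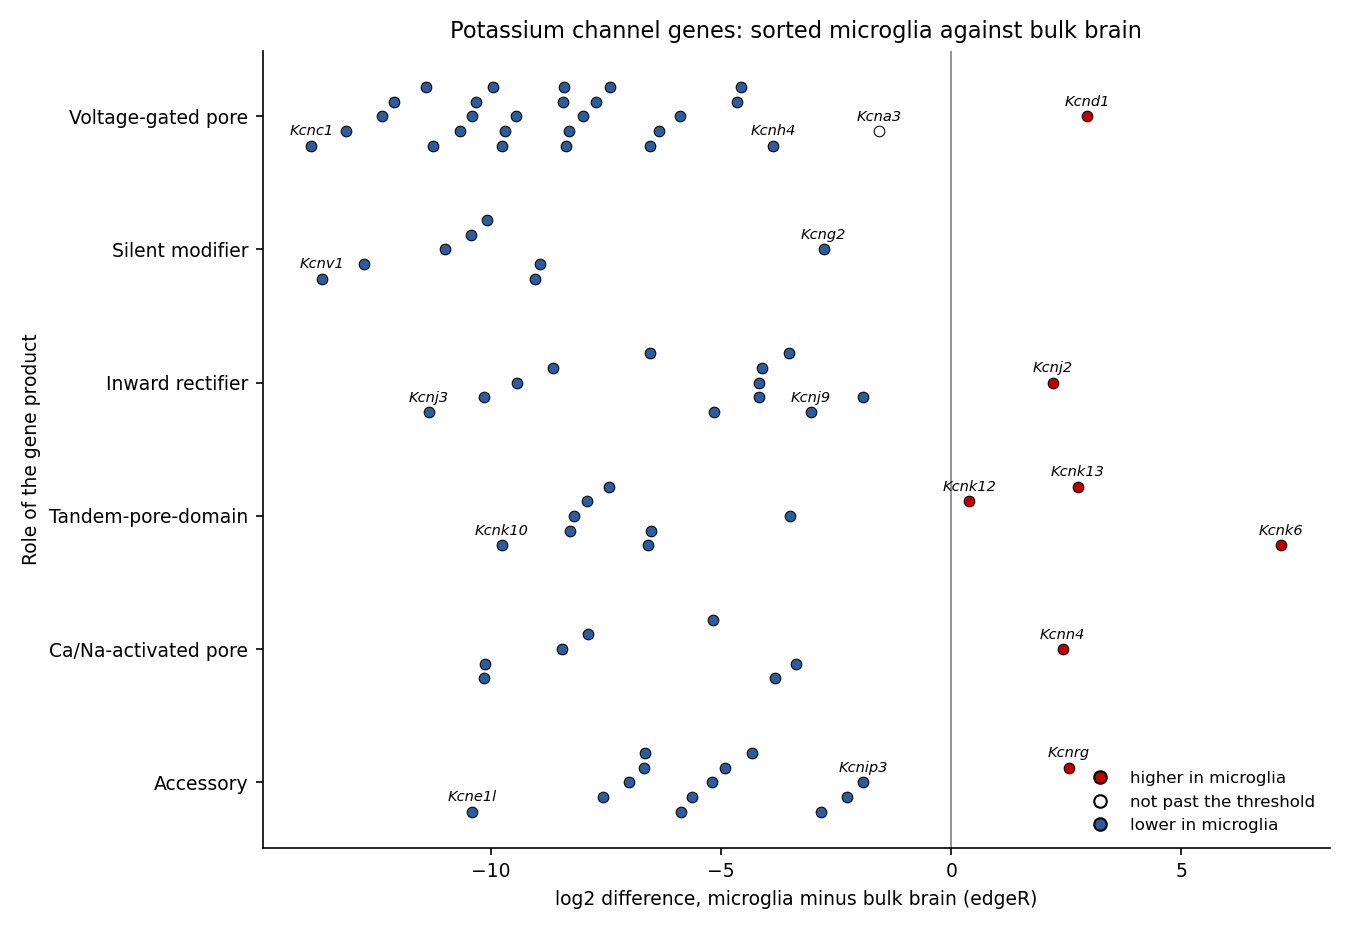
Log2 difference, microglia minus bulk brain, of the 82 tested potassium channel genes, 1 point a gene, in rows by the role of the product (offsets within a row only separate the points). The 7 genes higher in microglia lie right of 0, 3 of them in the tandem-pore-domain row, and the 74 lower ones reach −13.90, where fitted values of genes with 0 to 3 microglia counts depend on the prior count.

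The K2P genes, whose products leak potassium at rest, included 3 members higher in microglia and 8 lower of 11 tested (27.3% higher, where 37.2% of all genes were higher), with a median of −6.59 (−6.51 with 1 gene without microglia counts at its bound). Kcnk6 encodes TWIK-2, which in mouse macrophages carries potassium efflux upstream of NLRP3. It lies on chromosome 7 at 28921351 to 28931940 on the minus strand; gene positions here and below are in GRCm39. Kcnk6 had 356, 349, 355, 360 and 333 CPM in the 5 microglia libraries in replicate order, against 2.71, 1.93, 2.66, 2.82 and 2.06 CPM in the 5 bulk brain libraries. Every microglia library stood more than 100-fold above every bulk brain library, and the log2 difference was 7.17 ± 0.14 (here and below ± the standard error derived from the test statistic; adjusted p = 6.01e-12). For scale, the median difference of the 9 microglia markers was 7.23. The next largest difference among the members higher in microglia was 2.95.

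Kcnk13 encodes THIK-1, the leak channel known to set the resting potential of mouse microglia and to be opened downstream of the ADP receptor P2Y12; it lies on chromosome 12 at 99930758 to 100028941, plus strand. Its microglia libraries held 79.6, 88.1, 91.2, 85.0 and 89.0 CPM and its bulk brain libraries 15.5, 15.4, 12.3, 10.9 and 10.5 CPM, a difference of 2.74 ± 0.13 (adjusted p = 3.1e-09). The groups were far apart, and bulk brain replicates 1 and 2 were the 2 highest of their group. Kcnk12, on chromosome 17 at 88053229 to 88105422, minus strand, encodes THIK-2, the closest relative of THIK-1, which is largely held inside the cell and can pair with it. Kcnk12 had 19.6, 17.6, 17.5, 20.8 and 17.6 CPM in microglia, against 10.4, 13.1, 16.7, 14.0 and 16.5 CPM in bulk brain. These groups did not overlap, but they nearly met, at 17.5 CPM in the lowest microglia library and 16.7 CPM in the highest bulk brain library. The difference was 0.40 ± 0.15, adjusted p = 0.0261, and this call was lost under 13 of 23 alternatives, over which it ran from 0.09 to 0.59 and the adjusted p from 0.00416 to 1. Leaving out any 1 bulk brain library (adjusted p = 0.257, 0.182, 0.0714, 0.16 and 0.0683 without replicates 1 to 5 in turn) or microglia replicate 4 (adjusted p = 0.0541) ended it, as did bulk brain replicates 3 to 5 alone (0.09, adjusted p = 0.448). It is the only one of the 7 members called higher that stood under 2-fold.

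For the members called higher, the 250 bases before their annotated starts were read from RefSeq (GRCm38.p6, a build older than that of the counts). Entries were found for 69 of the 94 members, 5 of the 7 higher ones among them. Kcnk6 and Kcnd1 had no entry and were not searched. The motif GAGGAA, the core of sites bound by the macrophage factor PU.1, was searched on both strands. It stood in 3 of the 5 higher members, 14 of the 53 lower members (26.4%), Kcna3 and 3 of 10 members not tested, in all 21 of 69 (30.4%), and in 25.9% of all 27025 genes with an entry, so that the share among the lower members lay near the background and the 5 entries were too few to read. The 3 sequences follow, 5′ to 3′ on the gene's strand, because they are the higher members that hold the letters; capitals mark each GAGGAA or its reverse complement TTCCTC. The Kcnk13 stretch is chr12:99964249-99964498 (plus strand), the Kcnk12 stretch chr17:87797995-87798244 (minus strand) and the Kcnj2 stretch chr11:111065914-111066163 (plus strand).
Kcnk13: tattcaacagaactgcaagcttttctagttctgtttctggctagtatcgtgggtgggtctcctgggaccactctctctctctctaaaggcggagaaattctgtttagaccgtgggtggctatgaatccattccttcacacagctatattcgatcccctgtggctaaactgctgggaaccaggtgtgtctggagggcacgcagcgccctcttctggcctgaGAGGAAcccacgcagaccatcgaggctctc
Kcnk12: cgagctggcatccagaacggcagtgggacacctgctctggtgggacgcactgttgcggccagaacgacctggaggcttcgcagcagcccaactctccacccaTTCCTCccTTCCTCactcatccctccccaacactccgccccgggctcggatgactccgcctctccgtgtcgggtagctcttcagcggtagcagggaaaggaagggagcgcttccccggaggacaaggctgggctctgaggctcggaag
Kcnj2: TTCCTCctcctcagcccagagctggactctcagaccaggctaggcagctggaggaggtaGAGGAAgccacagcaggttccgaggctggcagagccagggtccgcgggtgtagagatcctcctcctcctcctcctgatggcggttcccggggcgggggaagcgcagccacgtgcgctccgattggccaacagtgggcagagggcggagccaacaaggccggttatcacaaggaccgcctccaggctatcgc
The Kcnk13 match begins 30 bases before the start. Kcnk12 holds a pair of matches on the other strand, 148 and 140 bases before the start, and Kcnj2 holds matches 250 bases (other strand) and 191 bases before it. These are matches of letters, and binding was not measured. The windows of Kcnrg and Kcnn4 did not hold these letters.

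The remaining 8 tested K2P genes were lower, and 7 of them had reached the count filter in bulk brain only. Kcnk9 encodes TASK-3, a leak channel of many neurons, and had the highest bulk brain CPM among them: 1.03, 1.32, 2.005, 1.11 and 1.88 CPM in microglia, against 94.8, 71.8, 164, 172 and 168 CPM in bulk brain (difference −6.51 ± 0.34, adjusted p = 5.14e-09). Its microglia level was thus low but not nil in any library, and within bulk brain replicates 1 and 2 were the lowest. The other lower K2P genes ranged from −9.75 for Kcnk10 to −3.50 for Kcnk5. Kcnk15 had 0 counts in microglia, at least 31.1-fold lower than in bulk brain, where it reached only 0.730 ± 0.271 CPM (SD, n = 5). Kcnk7, with 40 counts in all microglia libraries and 42 in all bulk brain libraries, Kcnk16 and Kcnk18 were not tested.

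Among the inward rectifiers, 1 of 13 tested members was higher and 12 lower, with a median of −4.18. Of all genes tested, 37.2% were higher and 43.9% lower. The count filter was reached in bulk brain only by 8 of the 13, and 95.6% of all such genes were lower. Kcnj2, at 110956990 to 110967647 on chromosome 11, plus strand, encodes Kir2.1, a strong inward rectifier that holds the membrane near the potassium potential. It had 70.6, 87.3, 84.2, 82.6 and 75.3 CPM in microglia, against 13.8, 11.3, 22.1, 20.1 and 19.4 CPM in bulk brain, a difference of 2.21 ± 0.18 (adjusted p = 3.09e-07). All microglia libraries were above all bulk brain libraries, and bulk brain replicates 1 and 2 were the lowest. Its neighbour Kcnj16, whose end lies 38.2 kb before the start of Kcnj2 on the same strand, encodes Kir5.1, a partner of Kir4.1 in astrocytes and kidney. Kcnj16 went the other way, with 1.83, 1.59, 1.62, 1.35 and 1.92 CPM in microglia, against 28.4, 19.7, 33.1, 33.3 and 30.0 CPM in bulk brain (−4.12 ± 0.19, adjusted p = 1.76e-09).

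Kcnj10 encodes Kir4.1, through which astrocytes clear potassium, and was second among all members in bulk brain per kilobase of gene length. Its libraries held 14.9, 18.1, 17.8, 15.5 and 11.5 CPM in microglia, against 231, 183, 324, 342 and 335 CPM in bulk brain, a difference of −4.18 ± 0.21 (adjusted p = 4.61e-09), and the groups were well apart. The microglia level was 5.50% of the bulk brain level. All 8 astrocyte markers were lower in microglia, at a summed 135 to 168 CPM against 3544 to 4561 CPM, and at 0.169% to 25.7% of bulk brain one by one, with a median of 0.414% and none at 0; the highest was Slc1a3, which carries glutamate. Their part in the Kcnj10 value was not tested. Kcnj9, which encodes the G-protein-gated channel subunit GIRK3, lies 11.9 kb from Kcnj10 on the opposite strand. Kcnj9 had 13.8, 18.3, 11.6, 18.4 and 12.5 CPM in microglia, against 132, 133, 116, 116 and 124 CPM in bulk brain (−3.06 ± 0.15, adjusted p = 3.48e-09), with no overlap.

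Kcnj8 encodes Kir6.1, a pore of ATP-sensitive channels in pericytes. It had 0.119, 0.233, 0.0771, 0.0796 and 0.0417 CPM in microglia, against 4.08, 6.29, 3.17, 3.59 and 3.41 CPM in bulk brain (−5.16 ± 0.41, adjusted p = 2.24e-07). All 7 pericyte and smooth muscle markers, Kcnj8 among them, were lower in microglia, at a summed 9.27 to 23.1 CPM against 213 to 247 CPM and at 2.68% to 33.5% of bulk brain, none at 0. Its sulfonylurea receptor partner Abcc9 was lower as well (−3.60 ± 0.39). The lowest inward rectifier was Kcnj3 (−11.34), which encodes the neuronal GIRK1, and the least lowered was Kcnj13 (−1.93), at 0.576 ± 0.494 CPM in microglia, against 2.21 ± 0.619 CPM in bulk brain (SD, n = 5 each). The whole of Kcnj13 lies inside the protein-coding Gigyf2 on the other strand, which had 92.0 ± 6.33 CPM in microglia, against 78.4 ± 15.9 CPM in bulk brain, and the part of Gigyf2 reads in the Kcnj13 count was not tested. Kcnj1 had 0 counts in all 10 libraries, and Kcnj15 was too low to test.

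**Figure D2:**
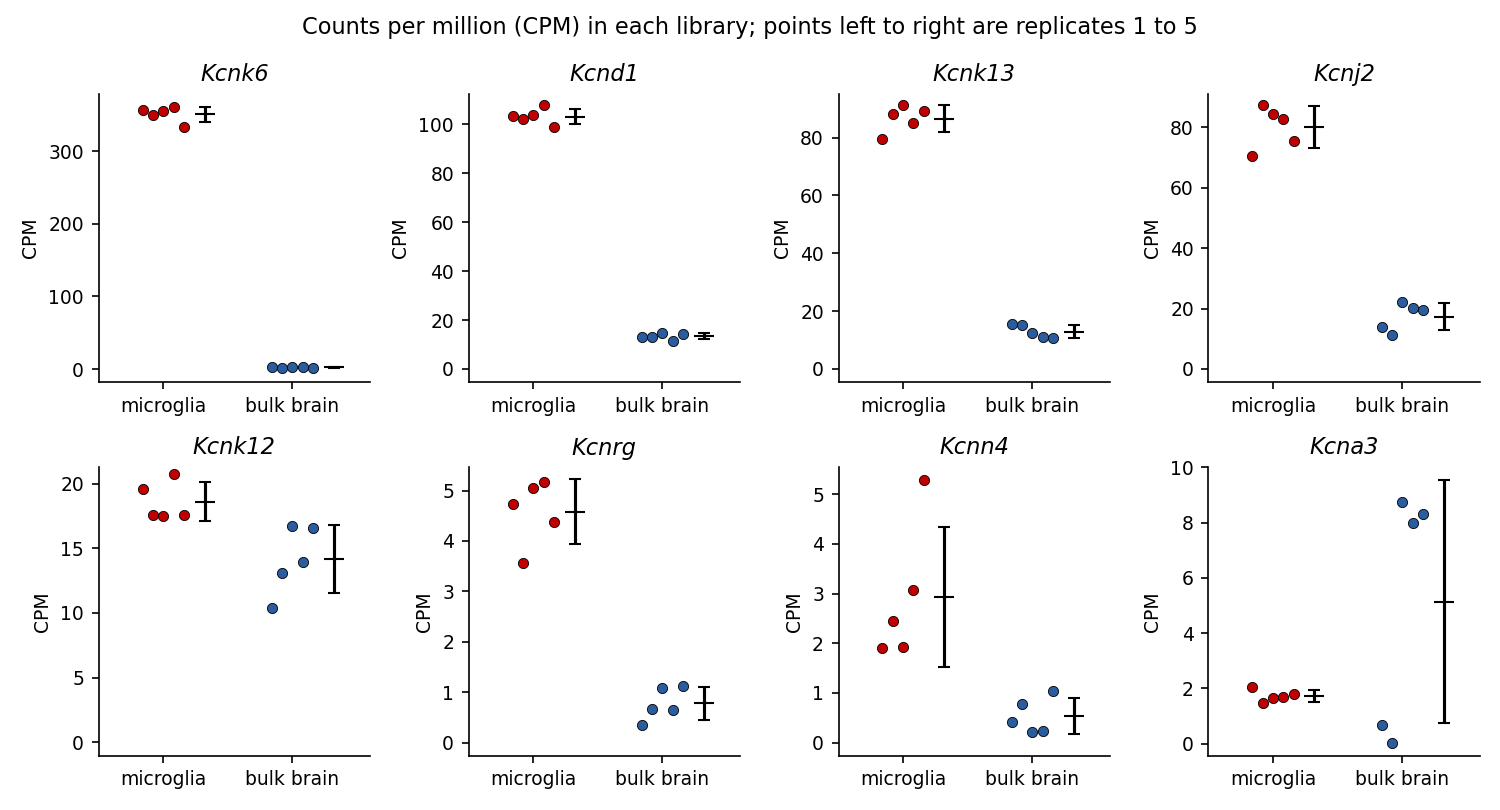
CPM (linear axes, each with its own scale) of 8 potassium channel genes in each of the 5 microglia and 5 bulk brain libraries, 1 point a library, with bars for the mean ± SD. For Kcnk6, Kcnd1, Kcnk13, Kcnj2, Kcnk12, Kcnrg and Kcnn4 every microglia point lies above every bulk brain point, while for Kcna3 the bulk brain points split into a low pair (replicates 1 and 2, 0.657 and 0.0289 CPM) and a high trio (replicates 3 to 5, 7.99 to 8.73 CPM).

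Voltage-gated pore genes carry the repolarizing currents of neurons. Of 28 tested, 26 passed as lower and 1 as higher, where 43.9% and 37.2% of all genes tested were. Their median was −8.42 (−8.39 with 3 genes at 0 microglia counts at their bound). The count filter was reached in bulk brain only by 23 of the 28, and 95.6% of all such genes were lower. Kcnd1, on the X chromosome at 7688528 to 7704519, plus strand, was the member that passed as higher. It encodes Kv4.1, a pore of fast-inactivating A-type currents. Its microglia libraries held 103, 102, 104, 108 and 98.8 CPM, against 13.1, 13.1, 14.8, 11.5 and 14.4 CPM in bulk brain, a difference of 2.95 ± 0.10 (adjusted p = 1.23e-10), with neither group spread over more than 1.5-fold. Kcnd2, which encodes Kv4.2 of neuronal dendrites, went the opposite way within this subfamily. It had 0, 0.0776, 0.386, 0 and 0.417 CPM in microglia, against 130, 115, 177, 172 and 180 CPM in bulk brain (−9.75 ± 0.52, adjusted p = 6.52e-09), and 2 microglia libraries had no count.

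Kcna3 encodes Kv1.3, the delayed rectifier of T cells that microglia in culture also carry, and was the only tested member that did not pass. It had 2.07, 1.47, 1.66, 1.67 and 1.79 CPM in microglia, against 0.657, 0.0289, 8.73, 7.99 and 8.31 CPM in bulk brain, so the microglia libraries lay between the low bulk brain pair and the high trio. The difference was −1.57 ± 0.87 with adjusted p = 0.115. It passed as lower with bulk brain replicates 3 to 5 alone (−2.42, adjusted p = 3.08e-08) and without bulk brain replicate 1 (−2.0, adjusted p = 0.045) or replicate 2 (−2.03, adjusted p = 0.00457), and as higher with replicates 1 and 2 alone (2.20, adjusted p = 0.0212). The whole of Kcna3 is overlapped on the other strand by the long noncoding gene Gm27008, with 2.35 ± 0.742 CPM in microglia, against 0.188 ± 0.141 CPM in bulk brain (SD, n = 5 each); how the counting treated strand is not given in the sources used here, so reads of such pairs may not be told apart.

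Kcna2, 63.1 kb downstream of Kcna3 on chromosome 3, encodes Kv1.2 of axons and had the highest bulk brain CPM of the subfamily. Its libraries held 0.0795, 0.659, 0, 0.239 and 0.625 CPM in microglia, against 268, 260, 540, 546 and 571 CPM in bulk brain (−10.40 ± 0.61, adjusted p = 1.53e-08). It had counts in 4 of the 5 microglia libraries, always below 1 CPM, and its bulk brain level was lowest in replicates 1 and 2.

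Kcnc1 encodes Kv3.1 of fast-spiking interneurons and had the largest fitted difference of all members. Its CPM was 0, 0.0776, 0, 0 and 0 in microglia and 264, 223, 347, 353 and 348 in bulk brain. All microglia reads were 2 counts in replicate 2, set against 51446 counts in bulk brain, and the ratio of bulk brain to microglia was 19220, with a 95% exact Poisson interval of 5321 to 158707 that covers counting error only. Kcnh7, of the ether-à-go-go-related subfamily, had 0.755, 1.008, 1.20, 1.19 and 0.917 CPM in microglia, against 41.8, 38.2, 121, 135 and 137 CPM in bulk brain (−6.54 ± 0.47, adjusted p = 9.02e-08). Kcnh7 was thus among the few voltage-gated genes at about 1 CPM in every microglia library. Its span shares 696 bases with the protein-coding Gca on the other strand, with a mean of 190.2 counts in microglia libraries and 400.6 in bulk brain libraries. The part of Gca reads in the Kcnh7 count was not tested.

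By subfamily, all 4 tested Kcnc and all 8 Kcnh genes were lower, as were 5 of the 6 tested Kcna pore genes. Of these lower genes, 3 Kcnc, 6 Kcnh and 5 Kcna pore genes had reached the count filter in bulk brain only. Kcnb2, Kcnh5 and Kcnh8 had no microglia count, at least 1580-fold, 756-fold and 61.5-fold lower than in bulk brain. The least lowered of those that passed was Kcnh4, at −3.86. Kcna7, with 23 counts over the microglia libraries and 7 over the bulk brain libraries, and Kcna10 were not tested.

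The electrically silent subunits, which form no channel alone and modify Kv2 pores, were lower in 8 of 8 tested. Their median was −10.26 (−9.55 with 3 genes at their bound). All 8 had reached the count filter in bulk brain only, and 95.6% of all such genes were lower, so 8 of 8 lay near that share. Kcnf1 had 0, 0.0776, 0.116, 0.159 and 0 CPM in microglia, against 94.0, 95.2, 111, 108 and 117 CPM in bulk brain (−10.44 ± 0.35, adjusted p = 1.32e-10). Kcng4 had 0.159, 0.271, 0, 0 and 0 CPM in microglia, against 50.0, 41.1, 46.8, 42.4 and 43.9 CPM in bulk brain (−8.94 ± 0.49, adjusted p = 8.3e-09). For both, the highest microglia library stayed under 0.3 CPM.
Kcnv1 and Kcns2 had 0 counts in all 5 microglia libraries. In bulk brain Kcnv1 had 46.2, 36.0, 65.6, 62.4 and 66.7 CPM, which made it at least 2306-fold lower in microglia with 3 counts over the group as the floor. Kcns2 had 25.9, 22.3, 32.8, 32.6 and 32.3 CPM in bulk brain and was at least 1218-fold lower. The exception in size was Kcng2, with 0.881 ± 0.557 CPM in microglia, against 6.01 ± 0.851 CPM in bulk brain (SD, n = 5 each), a difference of −2.77 ± 0.44. Kcng3 and Kcnv2 were not tested; Kcng3 reached 2.20 to 4.40 CPM in bulk brain replicates 3 to 5 but only 0.438 and 0.289 CPM in replicates 1 and 2.

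Of the 8 pore genes of the calcium- and sodium-activated family, all tested, 1 was higher and 7 lower, with a median of −6.53. Over all genes tested, 37.2% were higher and 43.9% lower. Of the 8, 5 had reached the count filter in bulk brain only, where 95.6% of such genes were lower. Kcnn4, on chromosome 7 at 24069688 to 24086115, plus strand, encodes KCa3.1, the intermediate-conductance channel of immune and red blood cells. It was low in both groups, with 1.91, 2.44, 1.93, 3.06 and 5.29 CPM in microglia, against 0.411, 0.779, 0.218, 0.238 and 1.05 CPM in bulk brain, a difference of 2.42 ± 0.49 (adjusted p = 0.000625). The groups did not overlap, although microglia replicate 5 was well above the other 4. Kcnn4 reached the count filter only in microglia, the group where it was high.

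Kcnma1, the large-conductance BK pore opened by calcium and voltage, was lower yet had a sizeable microglia level. It had 19.4, 17.5, 17.0, 19.4 and 16.8 CPM in microglia, against 127, 103, 332, 354 and 361 CPM in bulk brain (−3.82 ± 0.37, adjusted p = 1.26e-06). Microglia libraries were even, while the mean of bulk brain replicates 1 and 2 was 0.329 of that of replicates 3 to 5. Kcnn3, a small-conductance calcium-activated channel, had 0.0795, 0.0776, 0, 0.477 and 0 CPM in microglia, against 16.3, 12.01, 37.6, 45.4 and 43.9 CPM in bulk brain (−7.89 ± 0.73, adjusted p = 9.11e-07).
Kcnt1, the sodium-activated channel Slack, had 0, 0.0776, 0.0386, 0.119 and 0.542 CPM in microglia, against 154, 124, 192, 201 and 199 CPM in bulk brain (−10.13 ± 0.50, adjusted p = 3.33e-09). Both stayed under 0.2 CPM in 4 of the 5 microglia libraries. Kcnu1, the sperm channel Slo3, was placed in this family by its subfamily letter alone. It was low throughout, with 0, 0.0776, 0.0771, 0.0796 and 0.0834 CPM in microglia, against 1.92, 3.75, 1.78, 2.26 and 2.48 CPM in bulk brain (−5.17 ± 0.47, adjusted p = 7.22e-07). Among the small-conductance genes Kcnn1 was the least lowered (−3.37), and Kcnn2 had 2 microglia counts, a ratio of bulk brain to microglia of 1426 (95% exact Poisson interval 395 to 11775).

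Accessory and regulatory genes, whose products bind pores without conducting, included 1 member higher and 13 lower of 14 tested, with a median of −5.41. Over all genes tested, 37.2% were higher and 43.9% lower. The count filter was reached in bulk brain only by 7 of the 14, and 95.6% of all such genes were lower. Kcnrg, on chromosome 14 at 61844906 to 61850275, plus strand, encodes a protein that in human cells hinders the assembly of voltage-gated channels. It had 4.73, 3.57, 5.05, 5.17 and 4.38 CPM in microglia, against 0.356, 0.664, 1.09, 0.653 and 1.13 CPM in bulk brain, a difference of 2.56 ± 0.31 (adjusted p = 1.12e-05), with no overlap. Its whole span lies inside the noncoding gene Dleu2 on the other strand, which had 77.0 ± 7.96 CPM in microglia, against 8.65 ± 1.62 CPM in bulk brain (SD, n = 5 each; difference 3.15 ± 0.15), and the part of Dleu2 reads in the Kcnrg count was not tested.

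Kcnip3, known as calsenilin or DREAM, a calcium-binding partner of Kv4 pores that also acts in the nucleus, was the least lowered accessory gene. It had 21.1, 23.6, 17.4, 17.5 and 24.7 CPM in microglia, against 83.3, 96.6, 67.7, 69.0 and 77.9 CPM in bulk brain (−1.92 ± 0.14, adjusted p = 1.4e-07), and was the sixth member in microglia per kilobase. Kcnip2, another Kv4 partner, had 0.636, 0.155, 0.386, 0.358 and 0.750 CPM in microglia, against 94.9, 119, 70.9, 70.1 and 75.9 CPM in bulk brain (−7.56 ± 0.33, adjusted p = 1.19e-09). Unlike most of the genes above, Kcnip2 was highest in bulk brain replicates 1 and 2.
Kcnab2, the cytosolic Kvβ2 subunit, was the top member of bulk brain per kilobase by the mean of all 5 libraries. It had 3.81 ± 0.731 CPM in microglia, against 387 ± 47.2 CPM in bulk brain (SD, n = 5 each), a difference of −6.67 ± 0.17. Kcne1l had 6.85, 7.76, 5.31, 4.51 and 4.24 CPM in the bulk brain libraries and, with 0 microglia counts, was at least 242-fold lower in microglia. Of the subfamilies, all 3 Kcnab, all 4 Kcnip, all 3 tested Kcne and all 3 tested Kcnmb genes were lower. Kcne3, with 25 microglia counts and 3 bulk brain counts, Kcne1 and Kcnmb3 were not tested.

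The make-up of the summed Kcn level therefore differed between the groups. Summed over the 94 members, microglia came to 746 ± 19.1 CPM and bulk brain to 5659 ± 1050 CPM (SD, n = 5 each), so the microglia sum was 13.2% of the bulk brain sum, or 20.1% of it per kilobase of gene length (180 ± 4.17 CPM per kilobase in microglia, against 893 ± 91.8 in bulk brain). Per kilobase, which allows genes to be compared, K2P genes made up 68.0% ± 0.82 of the sum in microglia and 9.34% ± 1.09 in bulk brain. Voltage-gated pores made up 11.9% ± 0.13 in microglia, nearly all of it Kcnd1, and 39.4% ± 5.6 in bulk brain. Inward rectifiers held 12.7% ± 1.04 in microglia and 20.7% ± 1.14 in bulk brain; without scaling by length the order turned, at 15.4% ± 1.13 of the summed CPM in microglia and 13.7% ± 1.00 in bulk brain, with overlapping libraries. Per kilobase in microglia and bulk brain, accessory genes held 6.17% ± 0.58 and 18.2% ± 4.35, activated pores 1.08% ± 0.18 and 5.08% ± 1.07, and silent subunits 0.196% ± 0.112 and 7.30% ± 0.21. Kcnk6 alone was 46.9% ± 0.93 of the microglia sum and 0.0661% ± 0.0117 of the bulk brain sum. The 7 members called higher were together 88.4% ± 0.92 and 2.04% ± 0.14, shares that their selection as higher already favours.

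**Figure D3:**
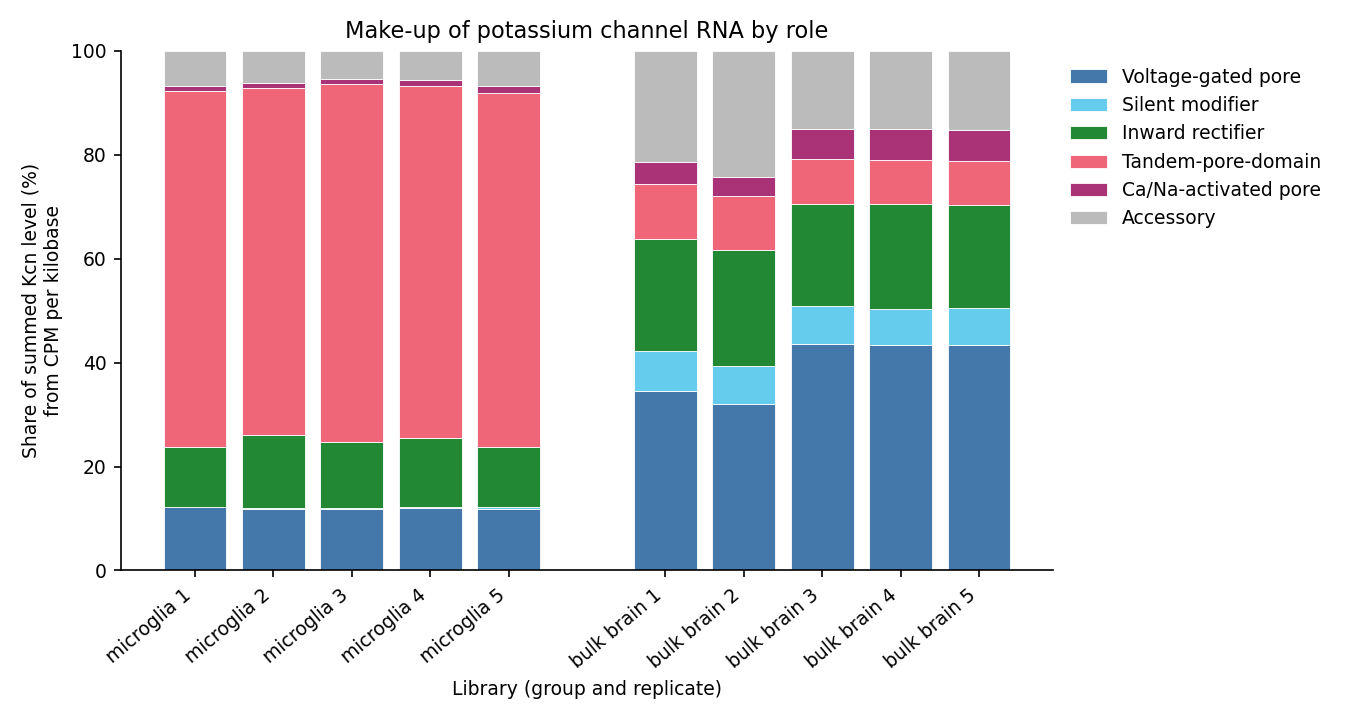
Share of the summed Kcn level (CPM per kilobase, in percent) taken by each role, 1 stacked bar for each of the 5 microglia and 5 bulk brain libraries. On average K2P genes fill 68.0% of the microglia sum and 9.34% of the bulk brain sum, and voltage-gated pores 11.9% and 39.4%.

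In order of CPM per kilobase, the microglia level was led by Kcnk6 at 84.5 ± 2.60, then Kcnk13 at 27.8 ± 1.45, Kcnd1 at 19.5 ± 0.615, Kcnj2 at 14.7 ± 1.26, Kcnk12 at 9.43 ± 0.760, Kcnip3 at 5.88 ± 0.955, Kcnj9 at 3.48 ± 0.761, Kcnj10 at 2.88 ± 0.488, Kcnrg at 2.51 ± 0.353 and Kcnma1 at 1.06 ± 0.075 (SD, n = 5). Neighbours in this order stood apart by more than their SDs down to Kcnip3, and from Kcnj9 to Kcnrg they did not. The bulk brain level was led by Kcnab2 at 55.5 ± 6.76 and Kcnj10 at 52.4 ± 13.3, which did not differ beyond their spread, and Kcnk6 reached 0.587 ± 0.098 there. The order of Kcnab2 and Kcnj10 turned between the bulk brain replicates. Mean CPM in replicates 1 and 2 against 3 to 5 was 435 and 356 for Kcnab2, and 207 and 334 for Kcnj10. A mean of at least 1 CPM was reached by 22 members in microglia and 79 in bulk brain, and one of at least 10 CPM by 9 in microglia and 56 in bulk brain.

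The level of the lower members in microglia varied widely beside that of other cell types' markers. The 10 neuron markers stood at 0.0394% to 0.397% of bulk brain in microglia, with a median of 0.134%. The 74 lower members had a median of 0.400%, 37 lay above the highest neuron marker, Rbfox3, and 14 were at 5% or more. The highest shares were those of Kcnip3 at 26.5%, Kcnj13 (inside Gigyf2) at 26.1%, Kcne2 at 20.7%, Kcng2 at 14.7%, Kcnmb1 at 13.8% and Kcnj9 at 12.02%. Kcnj13, Kcne2, Kcng2 and Kcnmb1 stood at only 1.47 to 6.01 CPM in bulk brain, where the neuron markers stood at 209 to 1746 CPM. Kcnmb1 had 26 microglia counts, at 0.698 CPM in replicate 2 and 0.0771 to 0.0834 CPM in the other libraries. It lies inside Kcnip1 on the other strand, and the part of Kcnip1 reads in its count was not tested. Of the lower members, 14 had at least 1 CPM in microglia, among them Kcnip3, Kcnma1, Kcnj10 and Kcnj9. Which cells these reads came from was not tested. Among astrocyte markers only Slc1a3 reached 5%, at 25.7%, with Aldh1l1 next at 2.21% and a median of 0.414%. Of the oligodendrocyte markers, 8 of 8 were lower (0.292% to 13.4%, summed 144 to 246 CPM against 5788 to 7813 CPM). Only Mag (11.8%) and Cnp (13.4%) of them reached 5%, and their median was 0.990%. Pericyte and smooth muscle markers had a median of 7.09%. None of these markers stood at 0. Endothelial markers stood higher still, at 12.02% to 228% of bulk brain with a median of 19.4%. Of these 6, 5 were lower in microglia and 1, Pecam1, was higher (log2 difference 1.19). Their sum was 63.7 to 94.9 CPM in microglia, against 203 to 258 CPM in bulk brain. The part of endothelial cells in the potassium channel values was not tested.

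**Figure D4:**
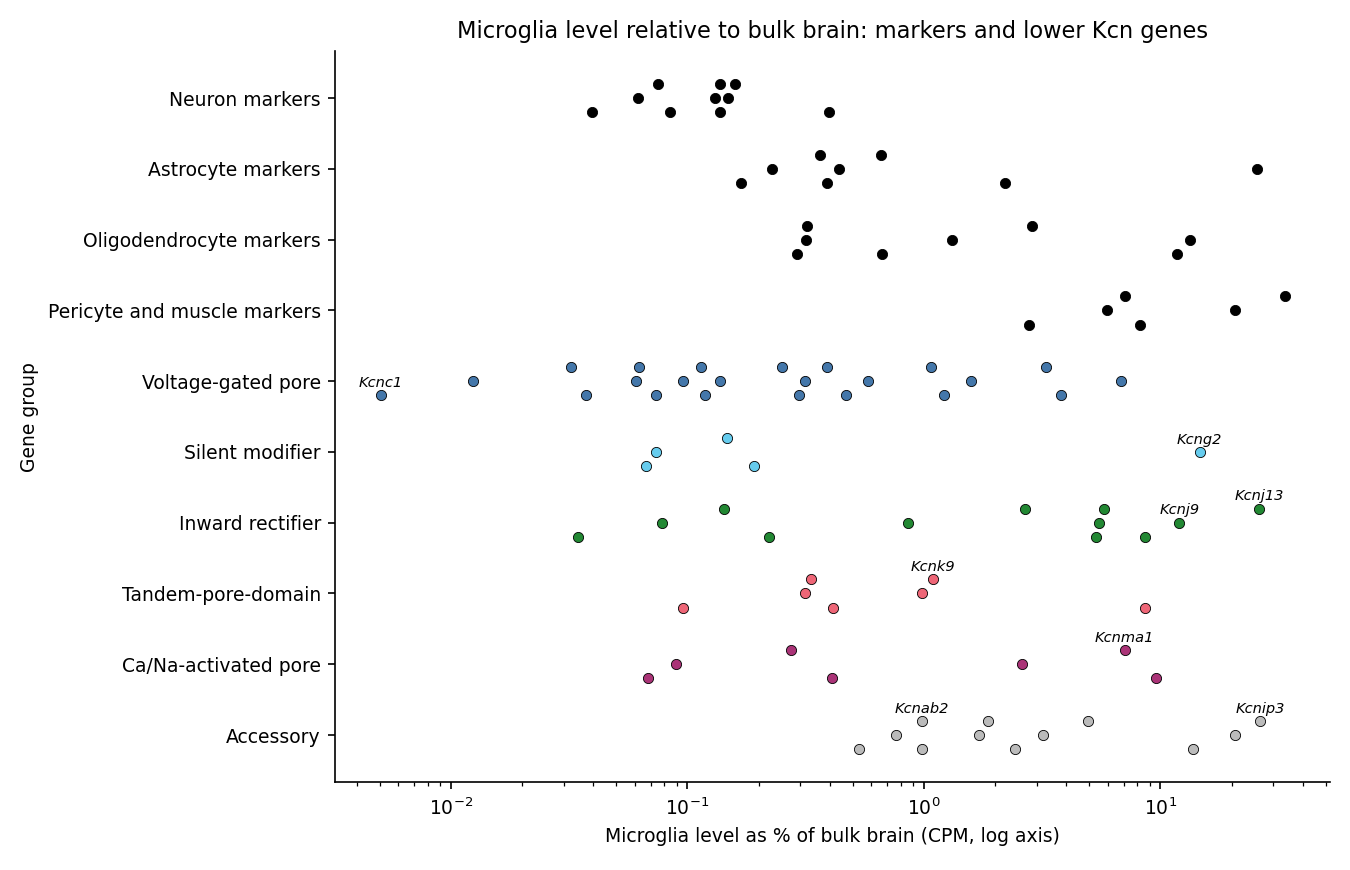
Microglia CPM as a percentage of bulk brain CPM (log axis) for marker genes of 4 other cell types (black) and for the lower potassium channel genes with microglia counts above 0 (coloured by role, Kcnj8 among the inward rectifiers), 1 point a gene. The neuron markers end at 0.397%, while 14 potassium channel genes stand at 5% or more.

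Within bulk brain the members followed the split between replicates 1 and 2 and replicates 3 to 5. Over the 79 members at 1 CPM or more in bulk brain, the ratio of mean CPM in replicates 1 and 2 to that in replicates 3 to 5 had a Spearman correlation of −0.57 with gene length, and over the 13903 protein-coding genes at that level one of −0.68. These are descriptions across genes, which share the same 5 libraries and are not independent replicates. Gene length here is the deposited length, which can be far shorter than the span between a gene's positions. Kcnh5, for example, had a length of 4058 bases but lies at 74943994 to 75224106 on chromosome 12. The 10 members of 10 kb or longer had ratios of 0.305 to 0.870 with a median of 0.388, and the 15 members under 3 kb a median of 1.23. In all, 16 members had a ratio under 0.5 and 6 a ratio over 1.5. The lowest ratios were, however, those of members with a deposited length under 10 kb. These were Kcna3 at 0.0411, Kcna1 at 0.0944, Kcng3 at 0.106, Kcnj6 at 0.164 and Kcnh5 at 0.172. Kcna1, the Kv1.1 pore of axons, had 23.9, 5.22, 145, 162 and 157 CPM in the bulk brain libraries, and 4 of the 5 microglia libraries held no count of it.

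**Figure D5:**
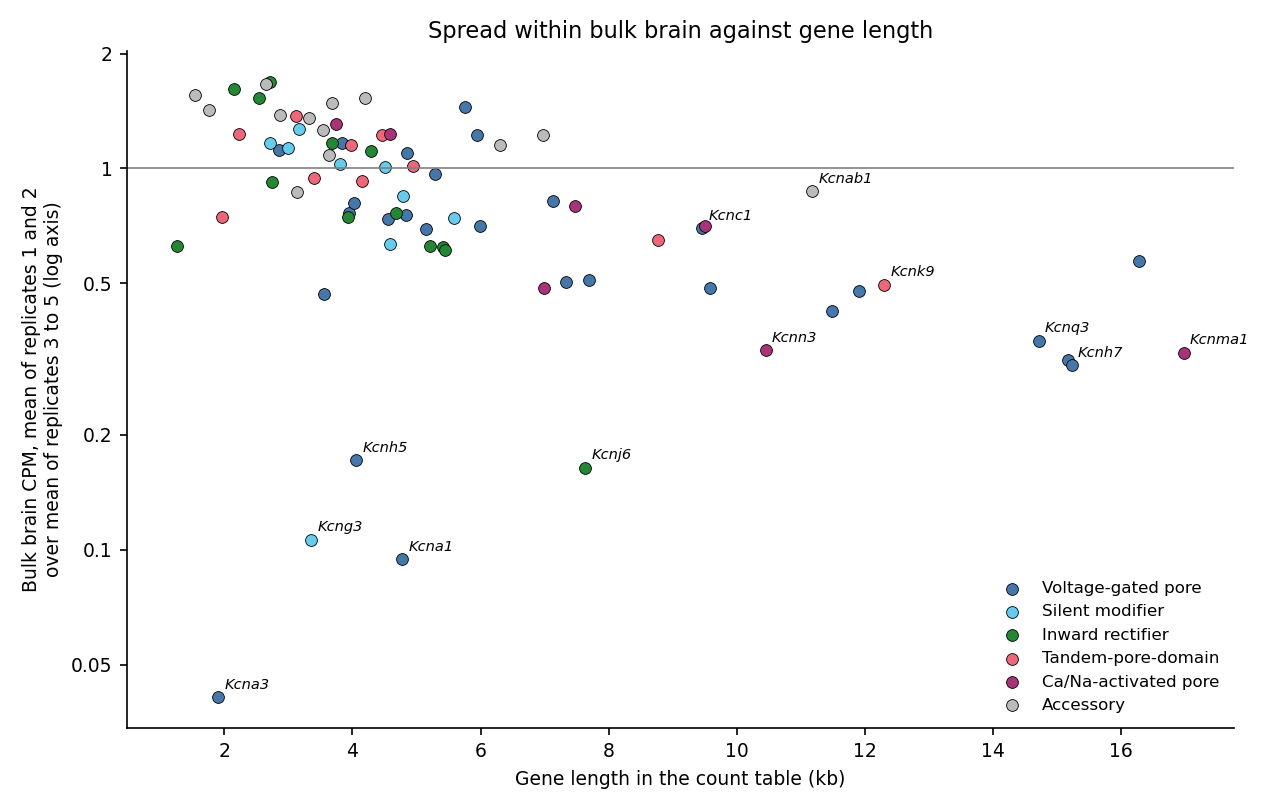
Ratio of mean bulk brain CPM in replicates 1 and 2 to that in replicates 3 to 5 (log axis) against gene length in kb for the 79 potassium channel genes whose bulk brain mean was 1 CPM or more, 1 point a gene, coloured by role. Genes with a deposited length of 10 kb or longer lie at 0.305 to 0.870. Kcna3, Kcna1, Kcng3, Kcnj6 and Kcnh5 lie below the rest at 0.0411 to 0.172.

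Of 41 other genes of potassium handling or tied to it, 35 were tested. Of these, 11 were higher, 23 lower and 1, Tmem38b, did not pass (−0.03 ± 0.13), with a median of −5.01. The higher genes were 31.4% of those tested and the lower ones 65.7%, where 37.2% and 43.9% of all genes tested were higher and lower. All 12 tested non-Kcn subunits and partners were lower. Among them were the Kv4 partners Dpp6 (−11.37 ± 0.38) and Dpp10 (−10.86 ± 0.41), the sulfonylurea receptor Abcc8 (−9.57 ± 0.53) and the Kv2 partner Amigo1 (−2.52 ± 0.13). Most of the 12, with Dpp6, Dpp10 and Abcc8, had a microglia library without counts and passed the count filter through their bulk brain level. Of all genes that reached the filter in bulk brain only, 95.6% were lower, so that all 12 were lower was largely set by the filter. Of 6 tested pump subunits, 5 were lower, including the beta subunits Atp1b1 (−9.30 ± 0.29) and Atp1b2 (−8.70 ± 0.46). Atp1b3 was higher, with 208 ± 8.45 CPM in microglia, against 145 ± 42.8 CPM in bulk brain (SD, n = 5 each; 0.52 ± 0.17, adjusted p = 0.0147). Its groups overlapped, at 196 to 218 CPM in microglia, against 180 and 202 CPM in the bulk brain pair of replicates 1 and 2, with the trio of replicates 3 to 5 at 111 to 116 CPM. The call was lost under 8 of 23 alternatives, among them bulk brain replicates 1 and 2 alone (0.05, adjusted p = 0.543) and leaving out bulk brain replicate 3, 4 or 5 (adjusted p = 0.0639, 0.0631 and 0.061). Of 5 tested cation-chloride cotransporters 4 were higher, among them Slc12a7 (2.61 ± 0.12), Slc12a2 (1.39 ± 0.17) and Slc12a4 (0.66 ± 0.12). The neuronal Slc12a5 was lower (−7.71 ± 0.18). All 5 genes tied to potassium efflux and THIK-1 were higher: Nlrp3, the inflammasome sensor, at 147 ± 6.78 CPM in microglia, against 0.718 ± 0.18 CPM in bulk brain (7.68 ± 0.18), the ATP-gated channel P2rx7 (4.98 ± 0.13), the kinase Nek7 (1.89 ± 0.09) and the ADP receptors P2ry12 (7.45 ± 0.17), itself 1 of the 9 microglia markers, and P2ry13 (7.38 ± 0.14). These 5 were picked for ties known from microglia and macrophages, so that all were higher is no independent result. They make up 5 of the 11 higher genes. The lysosomal channel Tmem175 was higher too (0.60 ± 0.10), and Hcn2, whose channel opens on hyperpolarization, was lower (−6.97 ± 0.27).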

How the data were processed

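RNA-seq was run on 5 libraries of CD11b+ cells sorted from mouse brain and 5 libraries of hemi brain. Qiazol lysis and a miRNeasy column gave the RNA, of which the poly-A fraction was taken for random-primed cDNA, per the labels' protocols. All samples carry the same batch label. Per the submitters' processing notes, CASAVA, HISAT2 2.2.1, featureCounts 2.0 and the build GRCm39 (mm39) were named, with no role or order. Not given in the sources used here: how strand and multi-mapping reads were handled, and which annotation release was used. The authors deposited raw counts per gene, with no normalization, and the gene lengths and positions used here are those of that table. A deposited length, also used for values per kilobase, can be far shorter than the span between a gene's positions. 0 value columns were left unmapped to a sample.

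Differences were fitted on the deposited counts of all genes with edgeR 4.0.16 (R 4.3.3): filterByExpr by group, TMM scaling, the quasi-likelihood test with group as the single term, and Benjamini-Hochberg adjustment over the 18969 genes tested, with a threshold of 0.05. Every adjusted p is from this test unless another is named, and tests are two-sided. CPM used TMM-scaled totals, and means are given ± SD over 5 libraries. The standard error of a log2 difference was taken as the difference divided by the square root of its F statistic. Intervals and floors (3 counts) cover counting error only. limma 3.58.1 and DESeq2 1.42.0 were alternatives, with other scalings and filters, a 2-fold test, thinning, left-out libraries and a replicate block. The steps were tested on simulated data, drawn for both groups from the mean bulk brain profile with a set dispersion of 0.1. There 67, 67 and 66 tested genes were changed 1.5-fold, 2-fold and 4-fold. Of these, 1.49%, 38.8% and 100% were recovered, so small changes were mostly missed in the simulation. Of the calls made there, 1.06% were false. In the measured data 81% of genes tested passed, Tmem175 at a log2 difference of 0.60 among them, so neither rate carries over.

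The 94 members, the marker and pathway lists and the tests were chosen with earlier results of these data known. Given with every library's value were members higher in microglia at 1 CPM or more, the lower member of each subfamily letter with the highest bulk brain CPM, tested members that did not pass, and genes known from microglia, astrocytes and vessels; other single values are extremes of a subfamily or neighbouring genes. Some genes that meet this rule or belong to the lists are not reported here. The spans of 42 members overlap another gene. RefSeq promoters (GRCm38.p6) were matched by symbol, and GRCm38 coordinates were not mixed with those of the counts.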

Additional observations from a re-analysis of the deposited data

Results flagged for a closer look

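In 53 groups of 5 libraries examined, 4 held a library whose gap to the others passed Dixon's critical ratio, where chance gives about 1 in 20 groups. All 4 were microglia values of lower genes at a few counts. Kcnc1 was highest in microglia replicate 2, at 0.0776 CPM with the other 4 at 0. Kcnn3 was highest in replicate 4 at 0.477 CPM, Kcnt1 was highest in replicate 5 at 0.542 CPM, and Kcnu1 was lowest in replicate 1 at 0 CPM.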

How the results depend on the processing

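Over 23 alternatives, 6 to 8 potassium channel genes were higher in microglia and 70 to 78 lower, and of 644 values for 28 genes examined singly, 626 kept their direction and side of the threshold. The exceptions were Kcnk12, which lost its call under 13, and Kcna3, which passed as lower under 3 and changed direction under 2, to 0.049 with limma-voom (adjusted p = 0.975) and to 2.20 with bulk brain replicates 1 and 2 alone; the cause was not tested. Against a 2-fold change, 4450 genes were higher in place of 7048, since that test asks for more. The summed Kcn level in microglia was 13.2% of bulk brain, 11.6% by library size alone, 20.1% per kilobase, 11.6% with bulk brain replicates 3 to 5 and 12.5% to 13.7% with 1 library left out. The median of all genes tested was −0.14, −0.31 with median-of-ratios factors, −0.33 by library size and −0.85 without a count filter. Deviations of same-numbered microglia and bulk brain libraries from their group means had correlations of −0.021 to 0.010. Such values between sorted cells and whole tissue cannot show whether same-numbered libraries share an animal. With the replicate block 6 members were higher and 74 lower, 6858 and 8037 over all genes, with Kcnk12 at 0.41 (adjusted p = 0.0548). Genes with 0 to 3 microglia counts are limited by depth to bounds and wide ratios.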

Other observations

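A further 5 Kcn symbols belonged to long noncoding genes and were not counted as members. Kcnq1ot1, the imprinted antisense transcript of the Kcnq1 locus, had 16.9, 13.6, 13.4, 14.7 and 15.3 CPM in the microglia libraries, against 15.9, 15.8, 42.8, 49.6 and 49.1 CPM in the bulk brain libraries. It was lower in microglia (−1.23 ± 0.33, adjusted p = 0.00454), but its microglia libraries overlapped bulk brain replicates 1 and 2, and the protein-coding Kcnq1 in the same locus had 2 microglia counts and 0.473 ± 0.157 CPM in bulk brain (SD, n = 5). Kcnmb4os2 had 0 microglia counts and was at least 141-fold lower than in bulk brain, where it stood at 3.35 ± 2.37 CPM. Kcnd3os had 2 microglia counts and 144 bulk brain counts, a ratio of bulk brain to microglia of 53.8 (95% exact Poisson interval 14.9 to 444). Kcnab3os and Kcnmb4os1 were too low to test.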
